A study of Mus musculus with 5 samples.

Results

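Notch1, Notch3, Hes1, Dtx1, Tcf7, Lef1, Bcl11b and Ptcra, which together carry the Notch signal and the transcription factors of T-lineage commitment, were examined for H3K4me3 and Cxxc1 peaks in DP thymocytes. The 8 genes were picked by name and are set beside the 22372 protein-coding genes of the mm9 annotation, and a peak was counted at a gene if it touched the gene body or the 10 kb upstream of its first transcription start site (TSS). A promoter peak had a listed window within 1 kb of any annotated TSS of the gene. The deposited lists came from ChIP-seq of Cxxc1 and of H3K4me3, the trimethylated lysine 4 of histone H3 that marks promoters.

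WT mice were Cxxc1 fl/fl without Cre. Cxxc1-deficient mice were Cxxc1 fl/fl hCD2 Cre, which lose Cxxc1 from early thymocytes onward and also in other immune cells, so floxed Cxxc1 alleles are common to both genotypes. The mice were a few weeks old according to the study's methods, and whether animals were pooled was not given in the sources used here. The titles of the Cxxc1-deficient libraries name a knockout whereas their genotype label reads Cxxc1+/-, and the titles were followed. Of 5 samples, 3 had a list that was analysed (WT H3K4me3, Cxxc1-deficient H3K4me3, and Cxxc1, whose file names no genotype and was taken as WT from the methods). The Cxxc1 ChIP of Cxxc1-deficient cells and the WT input were not analysed here. Each list rests on 1 library. Differences between the genotypes therefore have no replicates behind them, and no test was run. H3K4me3 windows do not show whether Cxxc1 itself was deleted.

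Values are tags per 1000000 mapped tags (RPM) in 200-bp windows inside called regions. Places outside these regions have no value, and a gene that is not listed has an unknown signal rather than a signal of 0. The spacing of the RPM values placed the depth of both H3K4me3 libraries between 9.41 and 9.47 M tags and that of Cxxc1 between 9.09 and 9.23 M tags. The intervals given for tag numbers are exact Poisson intervals at 95%, and they cover counting error only. The lists held 14237 WT peaks, 2979 Cxxc1-deficient peaks and 4352 Cxxc1 peaks, and the smallest peak in each held 10 tags.

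Notch1 and Notch3 are receptors that are cleaved when a neighbouring cell presents a ligand, and the freed intracellular part joins Rbpj on DNA to switch on target genes. Hes1 is a repressor and a classical Notch target, Dtx1 encodes the Notch regulator Deltex, and Ptcra encodes the pre-TCR alpha chain, a Notch target of the stage before DP cells. Notch signalling is strong before the pre-TCR checkpoint and is turned down in DP cells. Tcf7 (the gene for TCF-1) and Lef1 encode HMG-box factors that act early in T-cell specification and again at the DP stage, and Bcl11b encodes a zinc-finger factor that seals T-lineage commitment and is kept on in later T cells. Cxxc1 binds unmethylated CpG-rich DNA and is part of the Setd1 complexes that deposit H3K4me3.

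Because Cxxc1 binds CpG, the CpG content of the start regions is shown first. The sequences are the 250 bases before the start of transcription in mm9, on the strand of the gene, read from the genome. The start used was the most upstream of the GENCODE and RefSeq starts within 1 kb of the first RefSeq start (GRCm38.p6 table, matched to mm9 by sequence). It was a RefSeq start for Notch1, Lef1, Notch3 and Ptcra, and the GENCODE start for Tcf7, Bcl11b, Dtx1 and Hes1. Hes1 had no RefSeq entry in the table. CpG dinucleotides are in capitals. Tcf7 is shown for its Cxxc1 promoter peak, Notch1 and Lef1 as the genes with a promoter peak in both genotypes, and Ptcra as the gene with no peak in any list.

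Tcf7, chr11:52096682-52096931, minus strand: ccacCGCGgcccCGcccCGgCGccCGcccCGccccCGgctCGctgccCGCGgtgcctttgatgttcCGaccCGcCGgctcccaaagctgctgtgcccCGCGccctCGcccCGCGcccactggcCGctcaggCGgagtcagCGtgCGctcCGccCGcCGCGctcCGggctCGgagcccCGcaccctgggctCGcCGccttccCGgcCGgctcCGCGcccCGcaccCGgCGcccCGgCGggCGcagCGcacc

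Notch1, chr2:26359343-26359592, minus strand: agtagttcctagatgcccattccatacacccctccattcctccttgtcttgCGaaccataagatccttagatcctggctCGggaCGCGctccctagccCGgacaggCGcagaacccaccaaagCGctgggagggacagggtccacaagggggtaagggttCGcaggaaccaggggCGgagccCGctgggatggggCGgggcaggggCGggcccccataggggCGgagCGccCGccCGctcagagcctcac

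Lef1, chr3:130812965-130813214, plus strand: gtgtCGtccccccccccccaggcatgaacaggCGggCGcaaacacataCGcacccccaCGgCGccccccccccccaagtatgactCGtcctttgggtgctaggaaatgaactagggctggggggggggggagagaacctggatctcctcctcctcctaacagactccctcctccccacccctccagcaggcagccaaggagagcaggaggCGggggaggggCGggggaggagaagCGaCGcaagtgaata

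Ptcra, chr17:46900662-46900911, minus strand: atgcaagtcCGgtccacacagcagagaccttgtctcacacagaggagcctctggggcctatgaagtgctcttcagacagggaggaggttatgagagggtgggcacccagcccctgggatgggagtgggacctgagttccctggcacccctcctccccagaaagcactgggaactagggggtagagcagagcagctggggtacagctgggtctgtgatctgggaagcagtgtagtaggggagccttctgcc

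The Tcf7 stretch held 43 CpG, more than 99.1% of the 22372 protein-coding genes held in the 250 bases before their first GENCODE TSS, where the median was 9. Notch1 held 16, Lef1 held 11 and Ptcra held 1. Of the genes not printed, Hes1 held 19, Notch3 held 17, Bcl11b held 9 and Dtx1 held 2. The 250 bases of Ptcra and Dtx1 were thus among the CpG-poor stretches, with 7.51% and 16.5% of promoters holding fewer. The Dtx1 start used lies 258 bp upstream of its RefSeq start. The WT peak over the Dtx1 promoter held 5.94 CpG per 100 bp, above 78.2% of the WT list.

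The first question was where H3K4me3 was listed in WT cells. A WT promoter peak was present at 7 of the 8 genes, against 31.1% of all genes, and Ptcra was the exception. The 7 genes were also those with any WT peak in the region searched, as 41.3% of all genes had, and all of them held at least 2 there, against 14.3% of all genes. They held 42 WT peaks together, which covered 73.0 kb of listed windows with 1340 tags. By place, 9 of the 42 lay at promoters. The others were placed by the base at their centre, with 28 in introns, 3 upstream and 2 over exons. A peak called intronic may therefore also cover exons. Peak width ranged from 800 to 6600 bp with a median of 1800 bp, beside a median of 1600 bp for the whole WT list. Just inside the 10 kb limit were a Notch1 WT peak 8018 bp and a Hes1 Cxxc1 peak 9226 bp from the TSS, and 50 kb in place of 10 kb gave 54 WT, 10 Cxxc1-deficient and 8 Cxxc1 peaks. The strongest single window at any of the genes held 1.0 RPM, in an intron of Bcl11b.

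**Figure D1:**
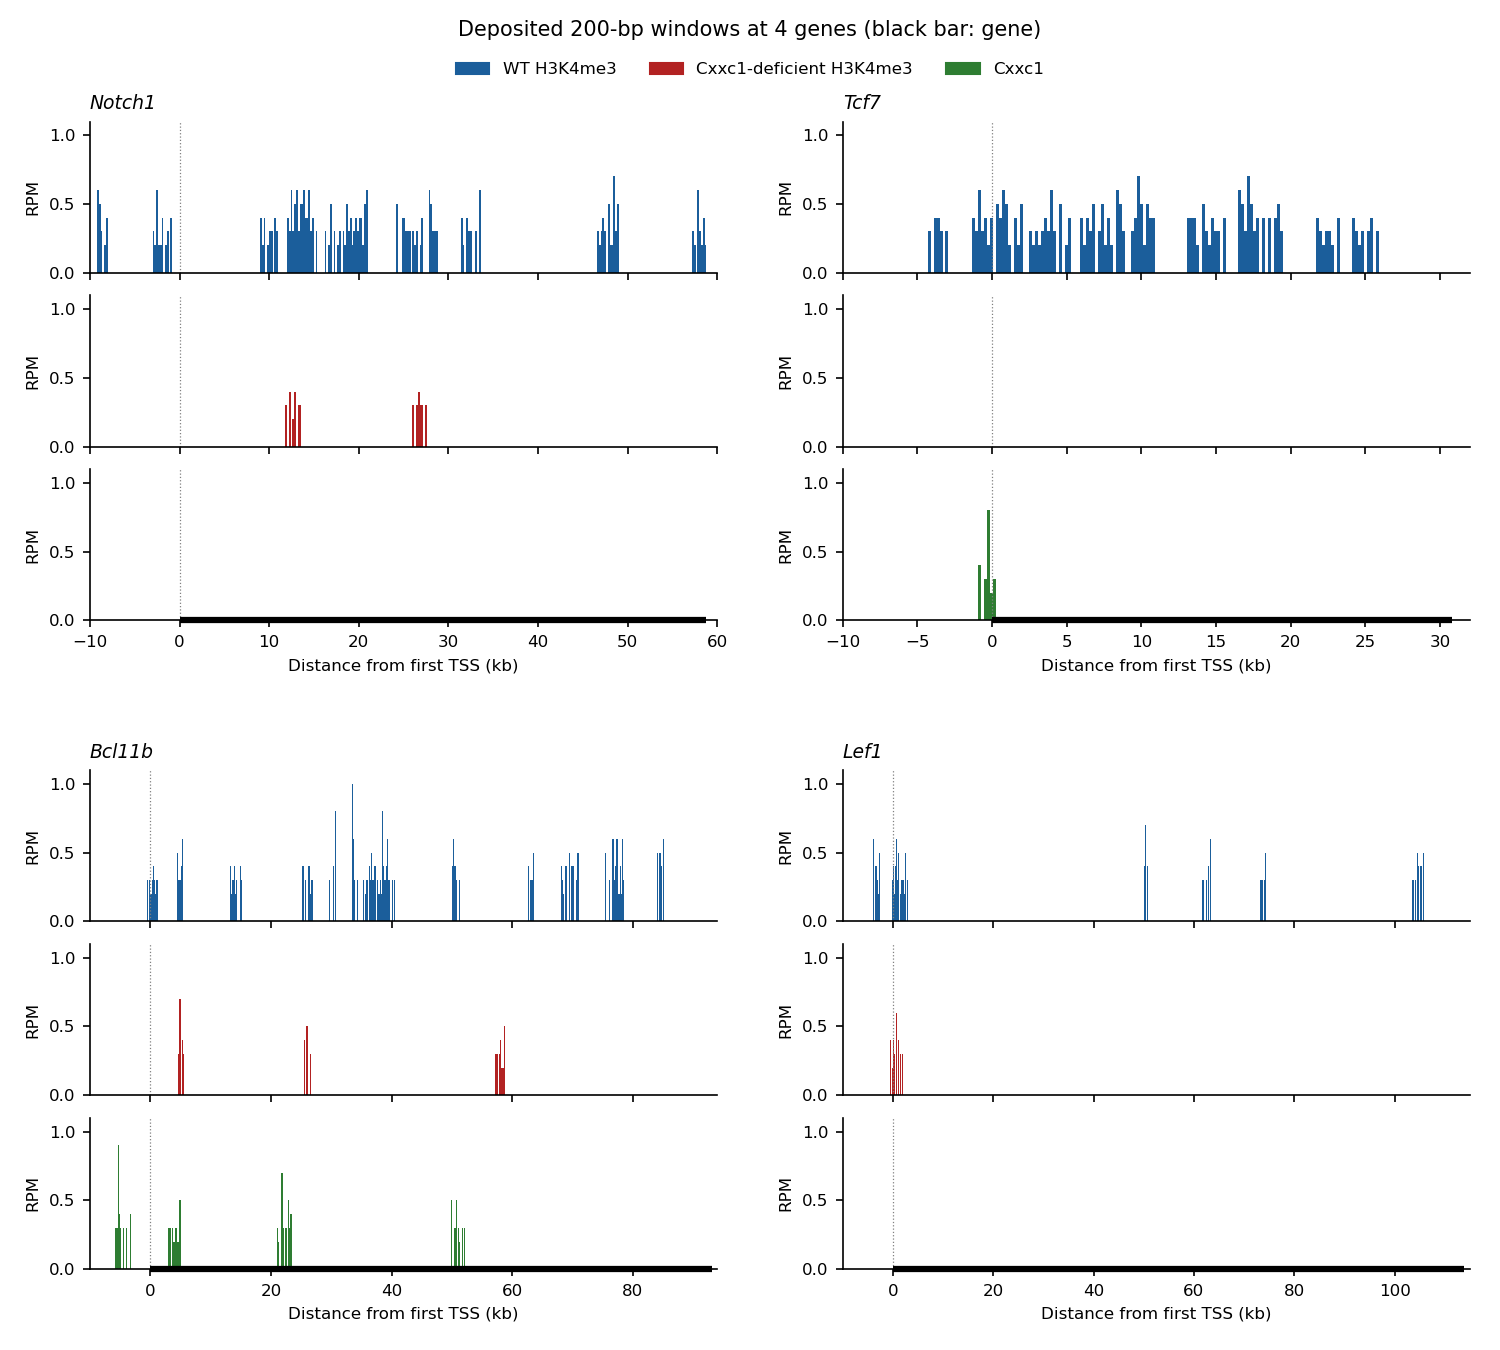
Listed 200-bp windows at Notch1, Tcf7, Bcl11b and Lef1, with the RPM of each window on the vertical axis and the distance from the first TSS in kb on the horizontal axis. Blue bars are WT H3K4me3, red bars Cxxc1-deficient H3K4me3 and green bars Cxxc1; the WT windows recur along the whole of Tcf7 and Notch1, whereas Tcf7 has no Cxxc1-deficient window at all.

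The 2 receptors differed in how much of the locus was listed. Notch1 (chr2:26313423-26372183, minus strand) held 10 WT peaks with 35.3 RPM over 19.8 kb of listed windows, which is 353 tags (317 to 392). Only 0.143% of genes, 32 in all, had 10 or more WT peaks. Notch3 (chr17:32257765-32303825, minus strand) held 2 WT peaks with 5.1 RPM over 3.0 kb, which is 51 tags (38.0 to 67.1). The listed windows took up 28.8% of the region searched at Notch1 and 5.35% at Notch3. Their tag intervals did not overlap.

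At Notch1 the annotated starts and the H3K4me3 windows did not coincide at the 5'-most TSS. That TSS, at 26372183, had no window at its position, and 1 window of 0.4 RPM lay within 1 kb, at the edge of the peak chr2:26373001-26375200 (2.8 RPM). The RefSeq start, which is also an annotated TSS, lies 12.8 kb downstream at 26359342. It fell inside the strongest WT peak of the gene, chr2:26356801-26360200, with 7.0 RPM and 70 tags (54.6 to 88.4). With 3400 bp this peak was wider than 94.1% of the WT promoter peaks. A further intronic peak next to it, chr2:26351201-26356000, was 4800 bp wide with 6.8 RPM. The Notch3 promoter peak, chr17:32302601-32304000, was 1400 bp wide with 2.4 RPM, and its second peak lay 4.22 kb inside the gene in an intron with 2.7 RPM.

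Among the Notch targets and regulators, Hes1 and Dtx1 had promoter peaks of up to 1600 bp, the median width of WT promoter peaks. Hes1 (chr16:30065426-30067882, plus strand) held 2 WT peaks with 4.8 RPM in all, or 48 tags (35.4 to 63.6). These peaks flanked its TSS: the nearest listed window upstream ended 626 bp away and the nearest one downstream began 575 bp away, and no window covered the start itself. The upstream peak, chr16:30063201-30064800, was CpG-rich, with 10.1 CpG per 100 bp, above 96.9% of the WT list. Dtx1 (chr5:121130211-121161936, minus strand) held 3 WT peaks with 6.1 RPM, or 61 tags (46.7 to 78.4). Its promoter peak, chr5:121160801-121162400, was 1600 bp wide with 2.1 RPM, and the other peaks lay in introns 16.5 and 27.3 kb from the TSS.

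Ptcra (chr17:46893176-46900542, minus strand) had no window in the WT, Cxxc1-deficient or Cxxc1 list. The nearest WT windows lay 57942 bp downstream and 73859 bp upstream of its TSS. Whether tags below the calling limit lay at Ptcra cannot be read from the lists.

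**Figure D2:**
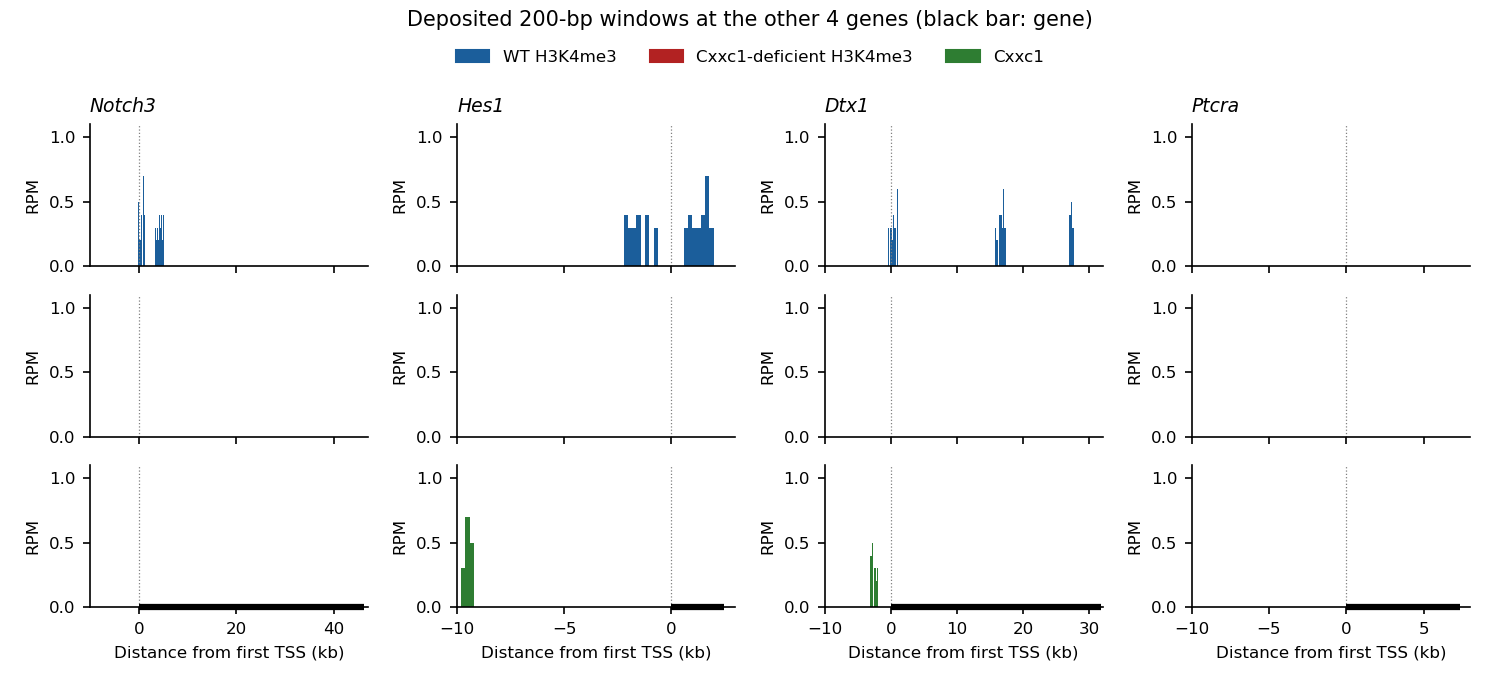
Listed 200-bp windows at Notch3, Hes1, Dtx1 and Ptcra, drawn as RPM per window (vertical axis) against distance from the first TSS in kb (horizontal axis), in the same colours for WT H3K4me3, Cxxc1-deficient H3K4me3 and Cxxc1. The Hes1 windows stand on either side of the TSS, no Cxxc1-deficient window is listed at any of these genes, and Ptcra is empty in all 3 lists.

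The core letters bound by the nuclear factors of these pathways were looked for in the same 250-base stretches, on both strands. TGGGAA (or its reverse complement TTCCCA), the core of the Rbpj site, was present in 3 of the 8 genes, against 21.0% of all promoters. Hes1 and Ptcra each held 2 copies, as 2.64% of promoters did, and Dtx1 held 1. The Hes1 stretch is shown for its 2 closely spaced copies of TGGGAA, in capitals. Other forms of the Rbpj site were not searched, so the capitals need not mark the sites that are used.

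Hes1, chr16:30065176-30065425, plus strand: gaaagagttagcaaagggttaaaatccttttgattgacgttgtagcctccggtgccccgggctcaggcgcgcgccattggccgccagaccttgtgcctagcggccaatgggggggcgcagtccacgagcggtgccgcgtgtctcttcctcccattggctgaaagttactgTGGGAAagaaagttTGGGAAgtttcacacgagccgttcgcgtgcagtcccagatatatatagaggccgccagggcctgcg

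CTTTGA (or TCAAAG), the core letters of TCF/LEF sites, was present in 1 of the 8 genes, Tcf7, against 13.3% of all promoters. The patterns do not overlap each other, and a match of letters does not show a bound site.

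The HMG-box genes and Bcl11b held at least 6 WT peaks each. Tcf7 (chr11:52065873-52096681, minus strand) held 7 WT peaks with 33.2 RPM over 18.0 kb of listed windows, which is 332 tags (297 to 370). A count of 7 or more was reached by 0.519% of genes. The windows made up 44.1% of the region searched, a larger share than at 99.9% of genes. The promoter peak, chr11:52091401-52098000, was 6600 bp wide and held 9.9 RPM, or 99 tags (80.5 to 121), and 99.8% of WT promoter peaks were narrower. The next peak downstream, chr11:52085801-52090800, was 5000 bp wide with 8.2 RPM and was separated from it by 600 bp. The Tcf7 width depends on joining windows over gaps: the promoter peak measured 1400 bp when only adjacent windows were joined and 12200 bp when 5 missing windows were bridged, and Lef1 went from 3200 to 1400 bp and Notch1 from 3400 to 12000 bp in the same way. Lef1 (chr3:130813389-130927274, plus strand) held 6 WT peaks with 15.4 RPM, or 154 tags (131 to 180), over 8.2 kb, and 0.796% of genes had 6 or more. Its promoter peak, chr3:130813201-130816400, was 3200 bp wide with 4.8 RPM, and the intronic peaks were centred 50.4 kb or farther from the TSS. The listed share of the Lef1 region was 6.62%, a larger share than at 83.3% of genes. That region was longer than at 91.2% of genes.

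Bcl11b (chr12:109148613-109241812, minus strand) held 12 WT peaks with 34.2 RPM over 18.0 kb, which is 341 tags (306 to 379). Only 22 genes, 0.0983%, had 12 or more. Its promoter peak, chr12:109240601-109242400, was of ordinary size, 1800 bp and 2.3 RPM, and 58.1% of WT promoter peaks were narrower. The widest peak lay 37.9 kb inside the gene over an exon, chr12:109201201-109206600, with 5400 bp and 7.8 RPM. Peaks were listed as far as 84.6 kb from the TSS. The listed windows made up 17.4% of the Bcl11b region, a larger share than at 96.3% of genes. That region was longer than at 88.6% of genes.

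Ranked by WT tags, Notch1 (353), Bcl11b (341) and Tcf7 (332) had overlapping intervals and cannot be ordered by counting error alone. Lef1 (154) stood below all of them and above Dtx1 (61), Notch3 (51) and Hes1 (48), whose intervals overlapped one another. These sums depend on the length searched, so they were also set per kb. Per kb of region the order was Tcf7 with 0.814 RPM, Notch1 with 0.513, Hes1 with 0.385, Bcl11b with 0.331, Dtx1 with 0.146, Lef1 with 0.124 and Notch3 with 0.0910. Per kb of listed windows the 7 genes lay between 1.70 RPM (Notch3) and 1.90 RPM (Bcl11b), with 1.95 RPM for the whole WT list. The genes thus differed in the length that was listed. Only called windows enter the mean RPM of a listed window, so the calling itself limits how far that mean can differ. Its narrow range is therefore not read as a trait of the genes.

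**Figure D3:**
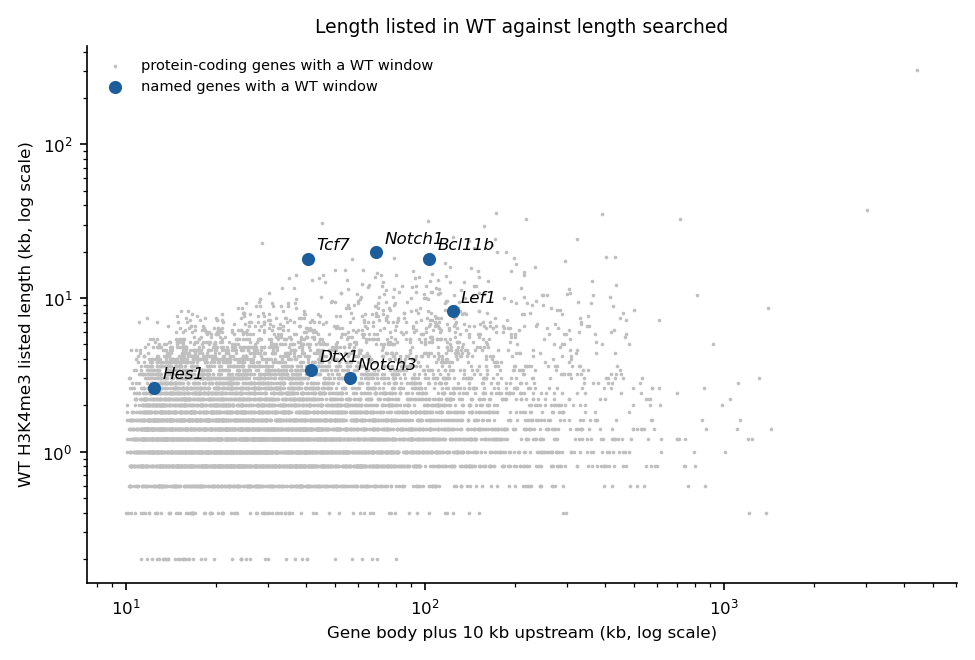
Length of WT H3K4me3 windows listed at each gene (vertical axis, kb, log scale) against the length searched, gene body plus 10 kb upstream (horizontal axis, kb, log scale). Grey points are protein-coding genes with a WT window and blue points the 7 named genes with one; Tcf7, Notch1 and Bcl11b lie at 18.0, 19.8 and 18.0 kb, near the upper edge of the grey points at their region length, and Ptcra has no point because nothing was listed.

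Of the 42 WT peaks, 10 were at least 3000 bp wide, against 8.07% of the WT list. Tcf7, Notch1 and Bcl11b held 3 each and Lef1 held 1, and Notch3, Hes1 and Dtx1 held none. The wide intronic peaks were not CpG-rich: the 5000 bp peak of Tcf7 held 1.6 CpG per 100 bp and the 4800 bp peak of Notch1 held 1.1, beside a median of 2.5 for the WT list. The median over the 42 peaks was 1.96.

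The second question was how the listing differed in Cxxc1-deficient cells. A Cxxc1-deficient peak was present in the region searched at 3 of the 8 genes, against 10.9% of all genes and 20.3% of genes with a WT peak there. These were Notch1 with 2 peaks, Lef1 with 1 and Bcl11b with 3, which together held 123 tags over 7.0 kb. Tcf7, Notch3, Hes1 and Dtx1 were listed in WT and not in Cxxc1-deficient cells. At the promoters the count was 2 of 8 (Notch1 and Lef1), against 5.86% of all genes and 12.8% of genes with a WT promoter peak. The Notch1 call rests on the TSS 12.8 kb downstream of the first one. The count was 1 with the 5'-most TSS alone, 1 in the stronger 50% of the list and 3 within 5 kb of a TSS. Genes with many WT peaks more often had a Cxxc1-deficient one: among the 178 genes with 6 or more WT peaks, 64.6% did, and of the 4 such genes here (Notch1, Tcf7, Lef1 and Bcl11b) 3 did. The 3 Cxxc1-deficient peaks of Bcl11b were a count that 0.308% of genes reached or passed.

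Tcf7 held 332 WT tags and had no Cxxc1-deficient window for 56920 bp upstream of its TSS or 154281 bp downstream. Its signal in Cxxc1-deficient cells is therefore unknown, and the size of the contrast cannot be ranked. Notch1 held 353 tags (317 to 392) in WT and 38 tags (26.9 to 52.2) in Cxxc1-deficient cells. Bcl11b held 341 tags (306 to 379) in WT and 56 (42.3 to 72.7) in Cxxc1-deficient cells. Lef1 held 154 tags (131 to 180) in WT and 29 (19.4 to 41.6) in Cxxc1-deficient cells. The intervals of the genotypes did not overlap at Notch1, Bcl11b or Lef1, but they contain neither the spread between animals nor the tags outside called regions.

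**Figure D4:**
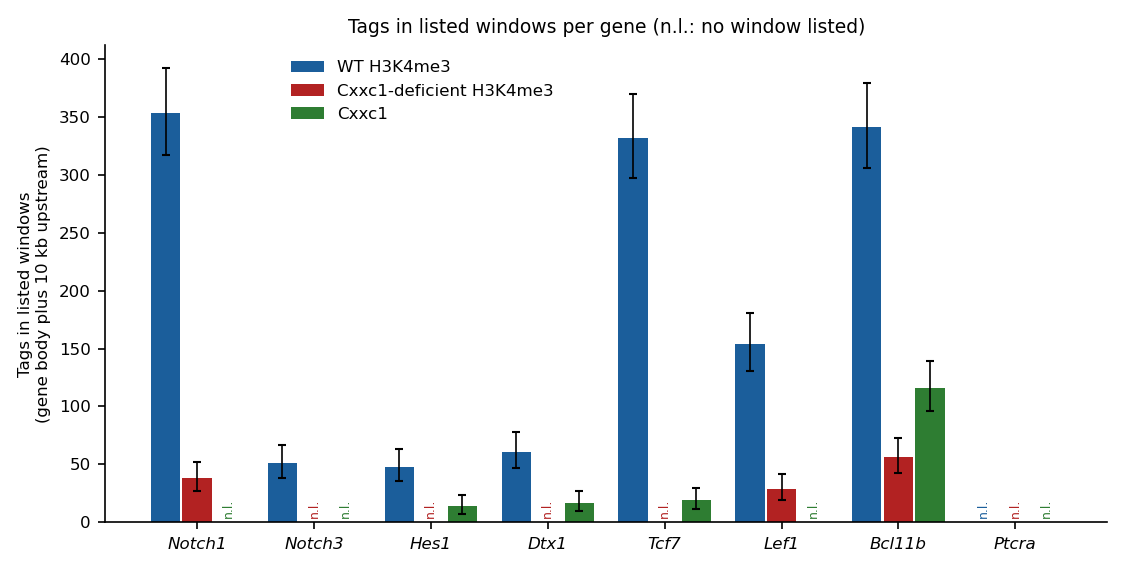
Tags in listed windows (vertical axis) for each of the 8 genes (horizontal axis), summed over gene body plus 10 kb upstream, with exact Poisson 95% intervals as error bars and 1 library per bar. WT H3K4me3 bars (blue) reach 332 to 353 tags at Notch1, Tcf7 and Bcl11b, Cxxc1-deficient bars (red) stay at or below 56, Cxxc1 bars (green) are highest at Bcl11b with 116, and n.l. marks genes without a listed window.

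Which WT peaks had a counterpart was asked next. A Cxxc1-deficient peak overlapped 5 of the 42 WT peaks, against 8.17% of the WT list. With a minimum of 2.2 RPM in both lists the count was 1 of 26. The 5 had a median of 3.6 RPM (1.9 to 7.0) and the other 37 a median of 2.4 RPM (1.5 to 9.9). In the other direction, 5 of the 6 Cxxc1-deficient peaks overlapped a WT peak, against 38.7% of that list, which also includes intergenic peaks. The sixth lay in an intron of Bcl11b, chr12:109183001-109184600, with 2.2 RPM, and the nearest WT peak was 3800 bp away.

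At Notch1 the peak over the RefSeq start was listed in both genotypes, at 7.0 RPM and 3400 bp in WT and at 1.9 RPM and 1800 bp in Cxxc1-deficient cells (chr2:26358601-26360400). The second shared place was an intronic peak, chr2:26345001-26348000 in WT with 3.6 RPM and chr2:26344601-26346200 in Cxxc1-deficient cells with 1.9 RPM. At Lef1 the promoter peak held 4.8 RPM in WT and, in Cxxc1-deficient cells, 2.9 RPM (chr3:130812801-130815400), or 48 tags (35.4 to 63.6) and 29 tags (19.4 to 41.6), so those intervals overlapped. The other 5 WT peaks of Lef1 had no counterpart. At Bcl11b the promoter peak had none, and the shared places were intronic, 4.91 and 26.1 kb inside the gene.

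In the windows that both genotypes listed, the sums were equal. The 20 such windows held 70 tags (54.6 to 88.4) in either genotype. WT exceeded Cxxc1-deficient cells in 7 windows, equalled them in 7 and fell short of them in 6. By gene, the 9 windows of Notch1 held 31 and 28 tags, the 7 windows of Lef1 25 and 25, and the 4 windows of Bcl11b 14 and 17. At Lef1 the highest shared window, chr3:130814001-130814200, held 0.6 RPM in each genotype. A window enters this count only if it was called in both lists, so the count cannot show windows that differ most. RPM is scaled to each library's own mapped tags, so a change in total H3K4me3 would not show in it. By ELISA, the study reported lower total H3K4me3 in Cxxc1-deficient than in WT DP thymocytes. Equal tags here therefore do not show equal H3K4me3. In WT and Cxxc1-deficient cells the mean RPM per kb of listed windows was 1.78 and 1.58 at Notch1. It was 1.88 and 1.81 at Lef1 and 1.90 and 1.87 at Bcl11b. Over the whole lists it was 1.95 and 1.92, and only called windows enter it.

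The third question was where Cxxc1 itself was listed. Cxxc1 peaks lay at 4 of the 8 genes (Hes1, Dtx1, Tcf7 and Bcl11b), against 11.0% of all genes, and at the promoter of 1 (Tcf7), against 1.96%. Within 2 kb of a TSS the promoter count was 2 and within 5 kb it was 3. The 7 peaks held 1.5 to 3.7 RPM each, or 14 to 35 tags. Of these, 3 overlapped a WT H3K4me3 peak, against 6.30% of the Cxxc1 list, and lay at Tcf7 and Bcl11b. The whole list includes intergenic peaks, whereas WT windows took up 44.1% of the Tcf7 region and 17.4% of the Bcl11b region. The 2 shares thus have unlike bases, and the overlap is not read as a trait of these peaks. Notch1, Notch3, Lef1 and Ptcra had no Cxxc1 peak. Among the 178 genes with 6 or more WT peaks, 59.0% had a Cxxc1 peak, and of the 4 such genes here Tcf7 and Bcl11b did.

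The Tcf7 peak, chr11:52096401-52097600, lay over the TSS inside the 6600 bp WT H3K4me3 peak and held 2.0 RPM, or 19 tags (11.4 to 29.7). It contained 8.58 CpG per 100 bp, more than 99.2% of the Cxxc1 list, whose median was 1.08. Its strongest window held 0.8 RPM and 23 CpG and is shown with CpG in capitals.

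Tcf7, chr11:52096801-52097000, minus strand: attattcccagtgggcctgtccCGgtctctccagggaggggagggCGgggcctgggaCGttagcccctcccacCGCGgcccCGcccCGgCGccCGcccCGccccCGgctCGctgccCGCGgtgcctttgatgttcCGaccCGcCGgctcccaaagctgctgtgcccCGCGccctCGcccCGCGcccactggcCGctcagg

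Bcl11b carried 4 Cxxc1 peaks with 11.9 RPM, or 116 tags (95.9 to 139), where 0.121% of genes had 4 or more. One lay upstream at chr12:109245001-109247600 (3.2 RPM), centred at -4.49 kb from the TSS, and 3 in introns. The strongest, chr12:109218401-109220800, held 3.7 RPM, above 98.8% of the Cxxc1 list, and had no H3K4me3 peak of either genotype. At chr12:109236801-109238800 the Cxxc1 peak (2.6 RPM) overlapped the WT peak chr12:109236401-109237400 (2.1 RPM) and the Cxxc1-deficient peak chr12:109236201-109237200 (1.7 RPM), the only place at the 8 genes listed in all 3. The strongest Cxxc1 window of the gene, 0.9 RPM in the upstream peak, held 3 CpG in 200 bp, and it is shown beside the Tcf7 window for that contrast.

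Bcl11b, chr12:109247001-109247200, minus strand: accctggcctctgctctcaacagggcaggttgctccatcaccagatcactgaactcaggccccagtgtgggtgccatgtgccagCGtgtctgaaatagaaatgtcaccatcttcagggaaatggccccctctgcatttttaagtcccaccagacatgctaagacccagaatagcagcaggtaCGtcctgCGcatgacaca

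The Hes1 peak, chr16:30055601-30056200, was centred at -9.53 kb from the TSS with 1.5 RPM, and the Dtx1 peak, chr5:121163801-121165000, at -2.46 kb with 1.7 RPM. Neither overlapped H3K4me3, and the nearest WT peaks were 7000 and 1400 bp away. Of the 4 genes with a Cxxc1 peak, Bcl11b had a Cxxc1-deficient H3K4me3 peak, and Notch1 and Lef1 had such peaks and no Cxxc1 peak. Over all genes, 10.9% had a Cxxc1-deficient peak in the region searched. The share among all genes with a Cxxc1 peak was not counted, so no link between the 2 lists is read from these genes. The Cxxc1 peaks at the 8 genes had a median of 2.46 CpG per 100 bp, beside the 1.08 of the whole list.

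The other genes of these pathways were then counted in 7 lists with 73 genes. A WT promoter peak was present at 47 (64.4%, against 31.1% of all genes), a Cxxc1-deficient promoter peak at 10 (against 5.86%), both at 9, and a Cxxc1 peak in gene body plus 10 kb upstream at 18 (against 11.0%). Many of these genes are active in T cells or their precursors, and no test was made of the lists. The shares of all genes given here are also the background for the counts by list that follow.

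**Figure D5:**
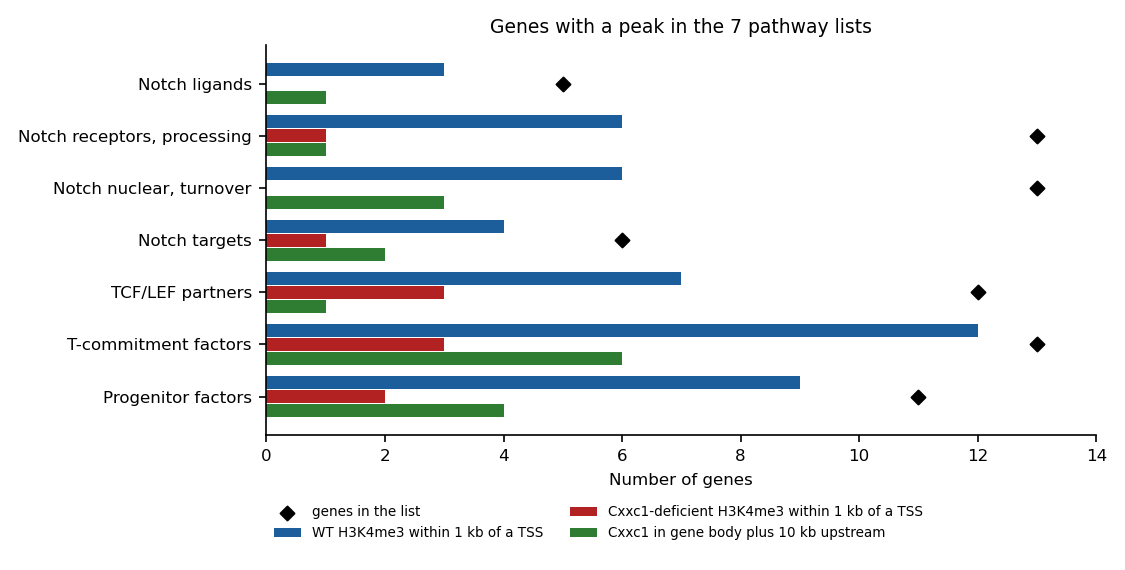
Number of genes (horizontal axis) in each of the 7 pathway lists (vertical axis) with a WT H3K4me3 promoter peak (blue), a Cxxc1-deficient H3K4me3 promoter peak (red) or a Cxxc1 peak in gene body plus 10 kb upstream (green); black diamonds give the number of genes in the list. T-commitment factors reach 12 of 13 in WT and 3 of 13 in Cxxc1-deficient cells, and Notch ligands and nuclear factors have no Cxxc1-deficient promoter peak.

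Among the Notch ligands, 3 of 5 had a WT promoter peak and none a Cxxc1-deficient one. Jag2 had the widest, 4600 bp, with 15.8 RPM over its region, while Dll4, the ligand that thymic epithelium presents, had 1600 bp. Of the other receptors and processing enzymes, 6 of 13 had a WT promoter peak (46.2%, against 31.1% of all genes). Psen2, a catalytic subunit of gamma-secretase, had a promoter peak in the Cxxc1-deficient list with 3.1 RPM and none in WT. This peak lay at an internal start, centred 6.47 kb from the first TSS. Of the nuclear partners and turnover factors, 6 of 13 had a WT promoter peak (46.2%), including Rbpj, the DNA-binding partner of cleaved Notch, with 2800 bp. The Rbpj peak lay at an internal start, centred 34.2 kb from the first TSS, and no other WT peak was listed at the gene. The coactivator gene Maml3 held 8 WT peaks with 17.8 RPM, 2 Cxxc1-deficient peaks with 3.7 RPM and 1 Cxxc1 peak.

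Of the further Notch targets, 4 of 6 had a WT promoter peak. Nrarp, a feedback inhibitor of Notch, had a promoter peak in both genotypes, at 2.2 RPM (WT) and 3.8 RPM (Cxxc1-deficient). Myc had a 4200 bp WT peak with 6.5 RPM and 2 Cxxc1 peaks with 9.9 and 5.0 RPM, of which the first was matched or passed by only 7 peaks of that list, itself included. All 10 Cxxc1 windows at Myc, with 14.9 RPM in all, touched an annotated exon. Whether these tags came from chromatin or from other DNA with Myc exons was not tested, so the values are not read here as Cxxc1 binding. Heyl had a Cxxc1 peak of 3.9 RPM that overlapped H3K4me3 peaks of both genotypes, 1.8 RPM in each.

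Of the TCF/LEF partners, 7 of 12 had a WT promoter peak, and 3 corepressor genes, Tle2, Tle3 and Tle4, had one in Cxxc1-deficient cells too. Tcf7l1 had a Cxxc1 peak of 3.4 RPM that overlapped its WT promoter peak. Of the T-commitment factors, 12 of 13 had a WT promoter peak, 3 (Gata3, Runx1 and Gfi1) a Cxxc1-deficient one, and 6 a Cxxc1 peak. Runx1, which acts with Bcl11b in early T cells, held 11 WT peaks with 27.4 RPM, 4 Cxxc1-deficient peaks with 9.4 RPM and 3 Cxxc1 peaks with 6.0 RPM. Its widest WT promoter peak, 6000 bp, lay at an internal start, centred 129 kb from the first TSS. Gata3 held 3 peaks in each genotype, with 7.1 RPM (WT) and 6.0 RPM (Cxxc1-deficient). The Cxxc1-deficient peak near its first TSS, chr2:9810401-9811600 with 1.6 RPM, overlapped no WT peak. The WT peaks of Gata3 were centred 6.96 kb or farther inside the gene.

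Genes of progenitors, which commitment turns off, were counted too, and 9 of 11 had a WT promoter peak, against 31.1% of all genes. Among them were Kit with 3000 bp, Hhex with 3400 bp and Spi1 with 1400 bp. The Hhex peak was centred 3.32 kb inside the gene. A Cxxc1-deficient promoter peak was listed at 2 (Spi1 and Erg), against 5.86% of all genes. That of Erg lay at an internal start, centred 128 kb from the first TSS. Of 10 markers of DP cells, 4 (Cd8a, Cd8b1, Cd3e and Lck) had a WT promoter peak, against 31.1% of all genes, and 7 had a WT peak in the region searched, against 41.3%. The further 3 were Cd4 with 2.2 RPM and Cd3d and Cd3g with 2.9 RPM each. A Cxxc1-deficient promoter peak was present at 3 (Cd8a, Cd3e and Rag1), against 5.86% of all genes. Rag1 had Cxxc1-deficient peaks with 3.3 RPM and no WT peak, and Rag2 and Themis had no peak in either genotype. Of 8 markers of B and myeloid cells, Ebf1 alone had a WT promoter peak, and of 6 markers of thymic epithelium, Aire alone. The share of all genes was 31.1%. Pax5, a B-cell factor, had 1 Cxxc1-deficient peak (1.7 RPM) and 2 Cxxc1 peaks. The part of other cell types in the peaks of the 8 genes was not tested.

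The genes most like the 2 members with the largest WT sums were sought by the distance over 5 quantities on the log2 scale (WT RPM, WT listed length, WT peak number, Cxxc1-deficient RPM and Cxxc1 RPM), across genes and with 1 library per quantity. Nearest to Notch1 were Rara (distance 0.358), Wnk2 (0.683) and Pip5k1c (0.701), where the median distance was 7.94. Rara held 8 WT peaks with 33.3 RPM, 1 Cxxc1-deficient peak with 4.3 RPM and no Cxxc1 peak. Nearest to Bcl11b were Arid1b (1.01), Runx1 (1.16) and Macrod1 (1.24), where the median distance was 8.90. Arid1b held 9 WT peaks with 22.5 RPM, 3 Cxxc1-deficient peaks with 6.1 RPM and 4 Cxxc1 peaks with 7.7 RPM.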

How the data were processed

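ChIP-seq of Cxxc1 and H3K4me3 was done in DP thymocytes, with 1 library per group and 5 samples, of which 3 had a file that was used. Per the study's methods, 50-bp reads were mapped to mm9, uniquely mapped reads were kept, and SICER 1.1 (CASAVA 1.8.2 for the reads, per the submitters' processing notes) called regions against input and Cxxc1-deficient ChIP. Which control served H3K4me3 and how duplicates were treated are not given in the sources used here, and either could change what is listed. The authors deposited the 200-bp windows of each called region in RPM, rounded to 1 decimal.

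The members and gene lists were chosen with earlier results of these data known. Windows at most 2 missing windows apart were joined into peaks. Sums per gene count only windows inside the region searched. Tags are RPM divided by the value of 1 tag (0.106 RPM for H3K4me3, 0.108 to 0.110 RPM for Cxxc1, from the decimals that occur). Overlap meant at least 1 bp. Gene models came from GENCODE vM1 (protein-coding transcripts, NCBIM37, the mm9 assembly). Ptcra and Gfi1 were added from other gene classes, and Spi1 was found under an older symbol. Peaks were placed as promoter (up to 1 kb from a TSS) and otherwise, by the base at their centre, as exon, intron or upstream. Background shares are over all protein-coding genes or all peaks of a list. Named were all 8 members, list genes with a Cxxc1 peak, a Cxxc1-deficient promoter peak or 1 of the 2 widest WT promoter peaks of their list (examples are given), and the 3 genes most like each of 2 members. Rara and Arid1b are given as examples of the last, and marker genes and the exon position of the Myc windows were singled out after their values were seen. The values of 1 marker gene are not reported here. Python 3.11.15, numpy 2.4.6, pandas 2.3.3, scipy 1.17.1 and matplotlib 3.10.9 were used, the functions were tested on simulated data, and counts were checked with bedtools 2.31.1. Alternatives were other promoter and upstream distances, joining rules, stronger peaks and a minimum of 2.2 RPM.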

Additional observations from a re-analysis of the deposited data

How the results depend on the processing

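No paired analysis was possible because there was 1 library per group. Of 47 alternatives over 13 results, 38 left the value within 1.5 times the main count or within its 95% interval and 9 did not. Joining only adjacent windows split the peaks of the members into 119 WT, 20 Cxxc1-deficient and 20 Cxxc1 peaks (main 42, 6 and 7), and the Tcf7 promoter peak then measured 1400 bp and that of Lef1 1400 bp. With up to 5 missing windows bridged, the Tcf7 and Notch1 promoter peaks grew to 12200 and 12000 bp, so their widths depend on this choice. The stronger 50% of each list left 24 WT and 2 Cxxc1-deficient peaks at the members and 32 list genes with a WT promoter peak (main 47). Searching 50 kb upstream gave 10 Cxxc1-deficient peaks, and the gene body alone gave 4 Cxxc1 peaks. With a minimum of 2.2 RPM in both lists, 1 of 26 WT peaks had a Cxxc1-deficient peak (main 5 of 42). Depth limits the lists: the smallest peaks held 10 tags, a window at the members at most 1.0 RPM, and the strength of unlisted places is unknown.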
